A study of Mus musculus with 8 samples.

Results

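The genes described here encode integrins, laminins and proteins grouped here as basement membrane linkers. They were chosen by name from the deposited gene table: all integrin α chains (18 genes), integrin β chains 1 to 8 (8), laminin α, β and γ chains (11), and the linker genes Nid1, Nid2, Hspg2, Egfl6 and Npnt (5), 42 of the 39179 genes counted. Their RNA was measured in astrocytes of the mouse spinal cord, sorted by flow cytometry for an Aldh1l1-GFP reporter 12 to 14 days after birth. The meninges had been taken off, and papain was used to free the cells, per the labels. The 4 control libraries (S1, S2, S6 and S7) came from cre-negative animals that the labels call wild-type, and the 4 conditional knockout (cKO) libraries (S3, S4, S5 and S8) from animals with both Kir4.1 alleles floxed and Aldh1l1-cre. All 8 carried Aldh1l1-GFP and were on a mixed Swiss-Webster background. Aldh1l1 elements therefore drove both the reporter that defined the sorted cells and the cre, and whether the control animals also carried floxed alleles is not given in the sources used here. The series design calls the 4 libraries of a group biological replicates, and the labels give neither the sex of the animals nor whether animals were pooled.

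Integrins are receptors made of an α and a β chain that cross the plasma membrane and couple matrix proteins outside the cell to the actin cytoskeleton inside it. Laminins are trimers of an α, a β and a γ chain that assemble into sheets on cell surfaces. Nidogens (Nid1, Nid2) and perlecan (Hspg2) join these sheets to collagen IV, and together they form the basement membrane. In the central nervous system, astrocyte endfeet contact such a membrane around blood vessels and beneath the pia, where astrocytes and vascular or meningeal cells each supply part of it. Egfl6 and Npnt, grouped here as linkers, encode proteins that bind integrin α8β1.

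Gene reads ranged from 13892736 to 25065686 per library. SE denotes the standard error of a log2 fold change. For edgeR fits it was derived as the absolute log2 fold change over the square root of the quasi-likelihood F statistic. The targeted gene, Kcnj10, which encodes Kir4.1, fell, with means of 1820.1 CPM ± 468 (SD, n = 4) in controls and 33.97 CPM ± 4.64 (SD, n = 4) in cKO, a log2 fold change of −5.74 (SE 0.25) and an adjusted p of 7.52e-08 by the edgeR quasi-likelihood test, with no overlap between groups. Summed astrocyte markers (11 of 11 genes detected in every library) were at 16843 to 24908 CPM in controls and 19478 to 24007 CPM in cKO. Of these 11 genes, 5 had a lower mean in cKO, and Aqp4 was higher, with means of 2007 CPM in controls and 4286 CPM in cKO. The adjusted p of Aqp4 was 0.0243 by the edgeR quasi-likelihood test. Summed endothelial, mural and fibroblast markers reached at most 76.3, 121 and 609.7 CPM. Oligodendrocyte markers ranged over 1479.9 to 2949.8 CPM in controls and 983 to 2413 CPM in cKO, with a lower mean in cKO for all 10 genes. Oligodendrocyte precursor markers ranged over 404 to 1192 CPM in controls and 304 to 548 CPM in cKO, with 6 of 7 lower, and neuronal markers over 51.3 to 89.01 CPM in controls and 34.5 to 56.8 CPM in cKO, with 8 of 10 lower. The part of these cells in the members' values was not tested. CPM are counts per 1000000 gene reads of a library, with TMM factors, and lists of 4 values follow the library order S1, S2, S6, S7 for controls and S3, S4, S5, S8 for cKO. In bulk samples, fewer cells of a type and less RNA per cell cannot be told apart.

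Of the 42 genes, Egfl6 fell in cKO and was the only member past an adjusted p of 0.05 by the edgeR quasi-likelihood test. DESeq2 on the same counts passed 3 members (Egfl6, Lama2 and Itga5), beside 2.49% of all genes with an adjusted p, and the authors' deposited table passed 4 (these and Lama1), beside 2.87%. By their values, Lama2, Lama1 and Itgb1 were below, and Itga5 and Itgb5 above, the control range in all 4 cKO libraries, and none of these 5 passed the threshold by the edgeR test. The count tables gave enough reads for 30 members to be tested. Of the 14757 genes tested, 0.318% passed the threshold, 0.115% lower and 0.203% higher in cKO, and 1 of the 30 tested members did, lower in cKO. An unadjusted p under 0.05 was reached by 7 members, 3 higher and 4 lower, where the share over all genes tested was 9.81%, 5.03% higher and 4.77% lower. Groups did not overlap in 6 members, 2 higher and 4 lower in cKO, where the share over all genes tested was 6.34%, 3.39% higher and 2.94% lower. The median log2 fold change of the 30 members was −0.32, with 20 lower and 10 higher, beside a median of −0.017 over all genes tested. Since a member passed the filter on low counts through either group, these counts describe the tested members and not the whole family.

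**Figure D1:**
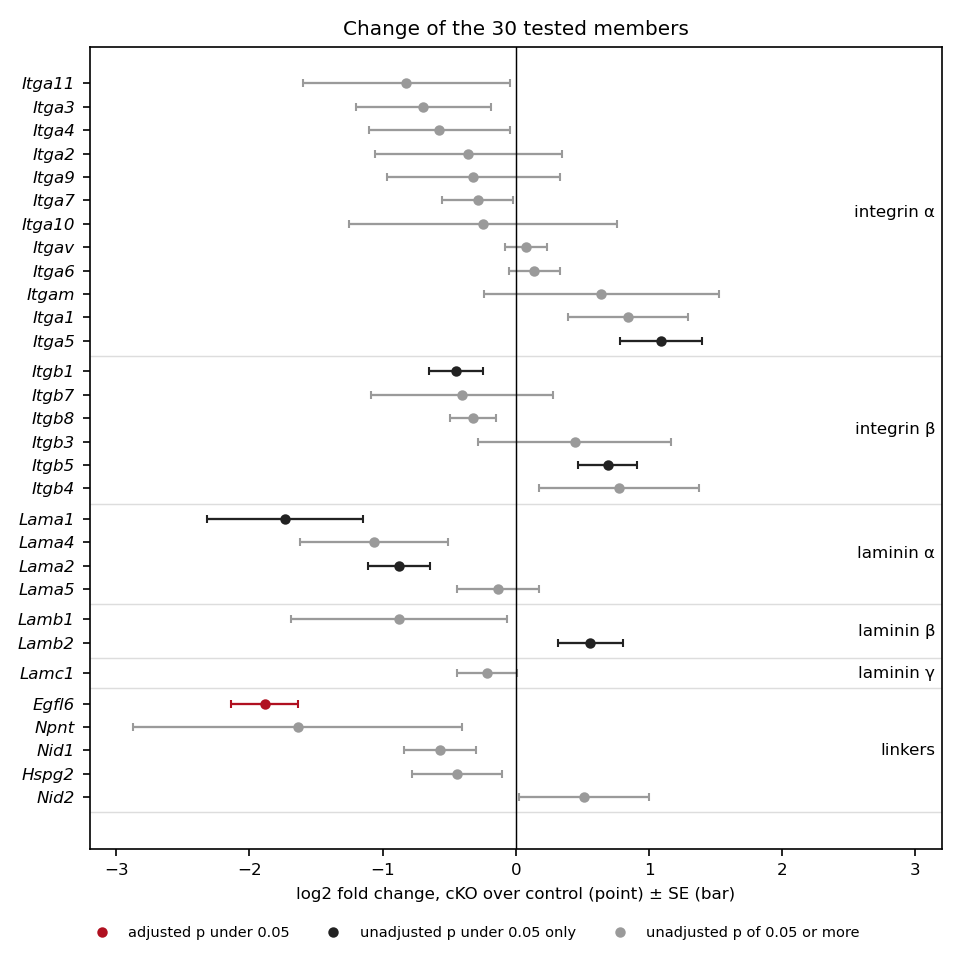
Log2 fold change of cKO over control (x axis) with its standard error (bar) for the 30 tested members, grouped by role. Egfl6 (red) passed an adjusted p of 0.05, and the 6 members in black had an unadjusted p under 0.05 only; all 4 laminin α chains lie left of 0.

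The stretch of 250 bases before the transcription start is shown for Egfl6, the member that fell, and for Itga5 and Itgb5. These were the integrin chains with separated groups and higher values in cKO. The stretches are from RefSeq on GRCm38.p6, whose table held a start on the annotated strand for 27 of the 42 members. For 3 of these the RefSeq start lay far from the annotated gene start, by 2816 bases for Lama2, 94295 for Lamb3 and 105002 for Itga9, and their windows enter the motif counts. Egfl6 is at chrX:166585717-166585966 on the minus strand, Itga5 at chr15:103366792-103367041 on the minus strand and Itgb5 at chr16:33829415-33829664 on the plus strand. Capitals mark the motifs that were searched on both strands: the TATA letters TATAAA, the CCAAT box, the GC box GGGCGG, the AP-1 letters TGACTCA, the TEAD letters GGAATG and the E-box CAGGTG, none of which contains another.
Egfl6: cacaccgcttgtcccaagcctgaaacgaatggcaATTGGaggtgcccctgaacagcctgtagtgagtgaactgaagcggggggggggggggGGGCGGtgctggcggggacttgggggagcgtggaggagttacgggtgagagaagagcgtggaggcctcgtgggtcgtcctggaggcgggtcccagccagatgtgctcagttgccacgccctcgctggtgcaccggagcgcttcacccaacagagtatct
Itga5: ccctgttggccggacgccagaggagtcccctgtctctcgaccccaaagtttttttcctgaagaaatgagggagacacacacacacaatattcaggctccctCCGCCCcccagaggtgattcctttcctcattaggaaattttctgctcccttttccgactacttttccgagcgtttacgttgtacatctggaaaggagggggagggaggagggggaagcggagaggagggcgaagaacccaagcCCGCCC
Itgb5: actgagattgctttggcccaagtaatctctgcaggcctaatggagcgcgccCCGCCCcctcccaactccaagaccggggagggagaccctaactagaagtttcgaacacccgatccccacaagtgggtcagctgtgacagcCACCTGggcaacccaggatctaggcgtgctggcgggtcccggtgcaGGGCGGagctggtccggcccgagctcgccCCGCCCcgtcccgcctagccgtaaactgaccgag
Egfl6 held 1 CCAAT and 1 GC box, Itga5 2 GC boxes, and Itgb5 3 GC boxes and 1 E-box. Each of the 27 members had 1 window, at the start nearest the annotated one, while a gene with several starts could enter the windows over all genes more than once. GC boxes stood in 12 of the 27 member windows (44.4%) and in 32.7% of 32851 windows of the same length over all genes, and the CCAAT letters in 5 of 27 (18.5%) and 33.8%. TATAAA was in 0 of the 27 member windows and in 12.4% of all windows. The E-box was in 6 of 27 (Itga9 among them) and 17.2%, the TEAD letters in 3 of 27 and 12.6%, and the AP-1 letters in 1 of 27 and 4.46%. A match describes letters in a window, and was not tested as a site.

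Levels were compared between genes per kilobase of exon, from the counts. The most abundant members in controls were Itga6 (39.3 ± 8.75 CPM per kb, SD, n = 4), Itgb8 (35.3 ± 5.60), Itgb1 (35.2 ± 2.32) and Itgav (30.7 ± 4.66), followed by Nid1 (19.8 ± 6.08) and Egfl6 (18.9 ± 4.40). The first 4 lay within their spread of one another, and so did Nid1 and Egfl6. The same 4 genes led by the mean of the deposited FPKM over all columns, in the order Itga6, Itgav, Itgb8 and Itgb1. Below them the FPKM order differed from that by counts per kb, with Lamc1 at rank 5, Itgb5 at 6, Nid1 at 7, Hspg2 at 8 and Egfl6 at 9. In controls the mean FPKM was 40.4 for Lamc1, 28.5 for Nid1 and 24.3 for Egfl6. Summed over all 42 members, the level was 231 ± 9.77 (SD, n = 4) CPM per kb in controls and 204 ± 20.2 (SD, n = 4) in cKO.

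**Figure D2:**
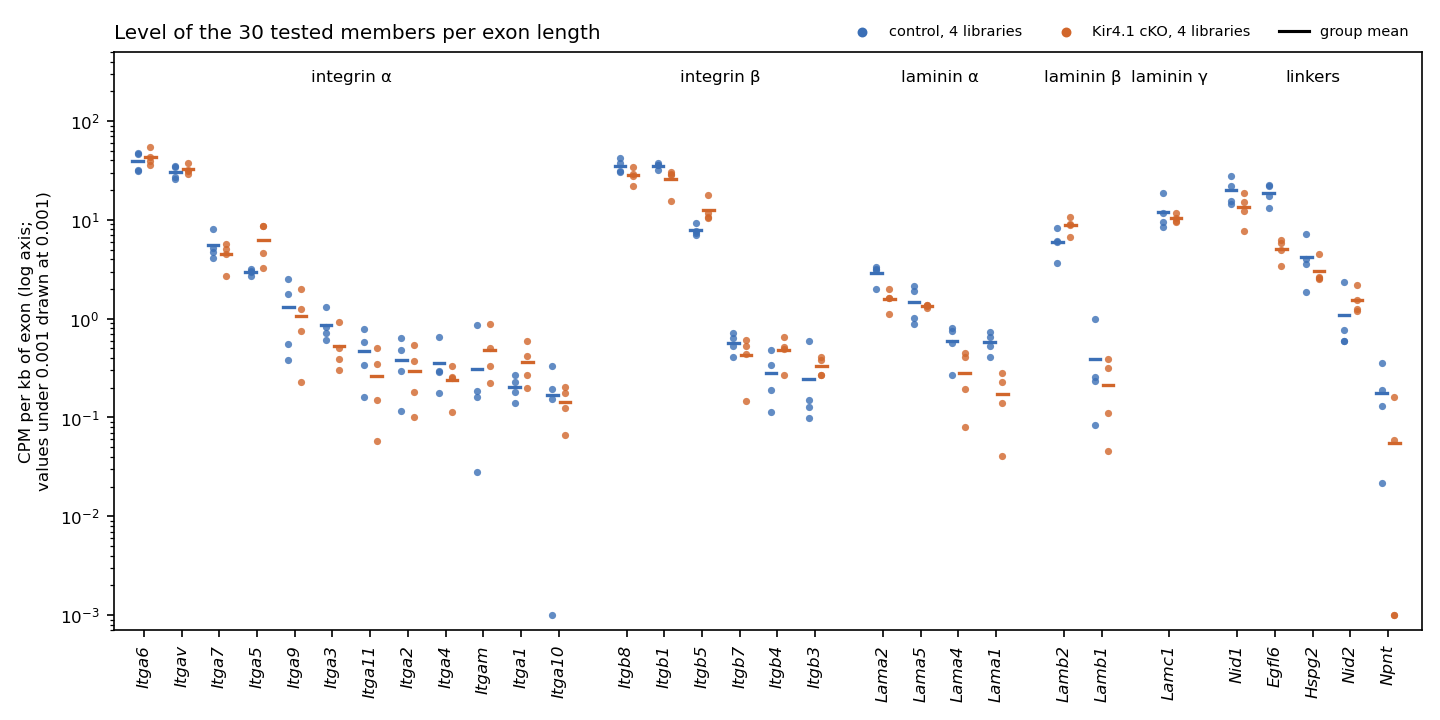
Level of each of the 30 tested members in CPM per kilobase of exon (log axis, values under 0.001 drawn at 0.001), with 1 point per library, blue for control and orange for cKO, and a dash for the group mean. Itga6, Itgav, Itgb8 and Itgb1 stand highest among the receptors in both groups. Among the matrix genes Nid1 and Egfl6 are highest in controls by this measure, and in cKO Egfl6 lies below Nid1, Lamc1 and Lamb2.

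Among integrin α chains, 2 genes made up most of the RNA. Itga6, a laminin receptor chain, took 47.1% ± 3.82, and Itgav, whose partners recognise RGD sequences in matrix proteins and in latent TGF-β, took 37.03% ± 1.58 (SD, n = 4) of the summed α-chain level per kb in controls. In cKO these shares were 47.8% ± 4.13 and 35.9% ± 0.316 (SD, n = 4). Itga6 was at 433, 414, 283 and 291 CPM in controls and at 392, 495, 322 and 356 CPM in cKO. Itgav was at 375, 371, 294 and 279 CPM in controls and at 334, 401, 312 and 344 CPM in cKO. Groups overlapped for both genes, and control S6 and S7 were lower than the other 6 libraries for each. Log2 fold changes were 0.14 and 0.076 (SE 0.19 and 0.16), with adjusted p of 0.862 and 0.914 by the edgeR quasi-likelihood test. Itga6 overlaps 4 and Itgav 2 other genes in the annotation. These overlaps are of whole gene spans and not of exons. Reads counted as ambiguous, 0.723% to 0.934% of a library, were left out of the counts. Strand use in counting is not stated, and the effect of overlapping genes on these values was not tested.

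Itga7, another laminin-binding chain, was the next in level per kb in controls, and in cKO Itga5 was (6.31 against 4.52 CPM per kb). Itga7 was at 42.5, 37.9, 33.5 and 64.7 CPM in controls and at 36.6, 41.5, 21.7 and 46.6 CPM in cKO. The groups overlapped, with the highest value in control S7 and the lowest in cKO S5, and the log2 fold change was −0.29 with an adjusted p of 0.778 by the edgeR quasi-likelihood test.

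Itga5, which pairs with β1 as the classical fibronectin receptor, had the largest log2 fold change upward among the members tested (chromosome 15, 103344286 to 103366763, minus strand; it overlaps the microRNA gene Mir6963). Itga5 was at 14.7, 14.8, 15.8 and 13.2 CPM in controls and at 16.2, 22.6, 43.2 and 42.5 CPM in cKO. The 4 controls lay within 13.2 to 15.8 CPM, a coefficient of variation of 7.21%, and the 4 cKO libraries spread over a wider range, 44.3%. cKO S3 was just above the highest control, while cKO S5 and S8 were both well above it. The result was a log2 fold change of 1.09 (SE 0.31), an unadjusted p of 0.00368 and an adjusted p of 0.216 by the edgeR quasi-likelihood test. DESeq2 on the same counts gave an adjusted p of 0.0381, and the authors' deposited table one of 0.0352 with a shrunken log2 fold change of 0.91. Both thus put Itga5 past the threshold of 0.05, whereas the edgeR test did not.

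The other tested α chains were at low levels and none passed the threshold. The collagen receptor chains Itga1, Itga2, Itga10 and Itga11 had means of 3.80, 2.72, 0.879 and 2.39 CPM in controls and of 6.84, 2.12, 0.737 and 1.35 CPM in cKO. The 4 libraries of a group differed widely, with SDs of 1.05, 1.61, 0.701 and 1.40 CPM in controls and 3.25, 1.40, 0.312 and 1.02 CPM in cKO. Itga1 was at 2.60, 3.35, 4.23 and 5.02 CPM in controls and at 4.95, 7.71, 11 and 3.68 CPM in cKO. The groups overlapped, with cKO S3 and S8 below control S7 and cKO S8 also below control S6. Itga1 also overlaps the gene Pelo. Its log2 fold change was 0.84 (SE 0.45), with an unadjusted p of 0.0851 by the edgeR quasi-likelihood test. Those of Itga2, Itga10 and Itga11 were −0.36, −0.25 and −0.82, with SEs of 0.70, 1.01 and 0.78. The laminin receptor chain Itga3 had means of 4.93 and 3.04 CPM in controls and cKO, and a log2 fold change of −0.69 (SE 0.51). Itga4 and Itga9, related chains that bind among others VCAM1 and tenascin-C, had means of 4.96 and 3.33 CPM and of 10.1 and 8.12 CPM. For Itga9 the libraries ranged from 1.77 CPM in cKO S4 to 19.5 CPM in control S7, and leaving out control S7 turned its log2 fold change from −0.32 to 0.24.

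Leukocyte integrins were at low levels, with Itgam at up to 4.39 CPM and Itgal at up to 2.18 CPM in any library. Itgam, the αM chain of microglia and myeloid cells, held 69, 11, 17 and 3 reads in controls and 86, 37, 45 and 26 in cKO. Its partner Itgb2 held 5, 5, 0 and 10 reads in controls and 22, 0, 3 and 0 in cKO. Itgal, the αL chain of lymphocytes, held 20, 0, 0 and 0 reads in controls and 21, 5, 0 and 51 in cKO, and Itgae, Itgax, Itgad and the platelet chain Itga2b held 20, 8, 7 and 40 reads over all 8 libraries together. Of these 7 genes only Itgam had enough reads for a test. Beside them, summed markers of microglia and macrophages (8 of 10 genes seen in every library) were at 24.1 to 35.7 CPM in controls and 24.96 to 52.9 CPM in cKO. Of 10 markers of other leukocytes, 8 were at 0 in every library, among them Cd3e and S100a8. Itga8, the α chain that binds nephronectin and Egfl6 through their RGD sequence, held 4, 0, 12 and 38 reads in controls and 4, 0, 5 and 2 in cKO, with most of them in control S7, and was not tested.

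Among β chains, Itgb8 and Itgb1 were at similar levels per kb and together took most of the RNA. Itgb8 pairs with αv and is known for releasing active TGF-β from its latent complex, and Itgb1 is the common partner of most α chains, those for laminin, collagen and fibronectin included. Itgb8 took 44.2% ± 5.15 and Itgb1 44.3% ± 3.69 of the summed β-chain level per kb in controls, and 41.3% ± 2.81 and 37.3% ± 7.30 in cKO (n = 4 each, ± SD). Itgb8 was at 465, 419, 335 and 345 CPM in controls and at 323, 375, 245 and 309.99 CPM in cKO. Groups overlapped for Itgb8, and its log2 fold change was −0.32 (SE 0.17), with an adjusted p of 0.579 by the edgeR quasi-likelihood test.

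Itgb1 was at 145, 131, 153 and 145 CPM in controls and at 119.7, 115, 62.9 and 124 CPM in cKO (chromosome 8, 128685654 to 128733200, plus strand). All cKO libraries were below all controls, and cKO S5 stood far below the other 3 cKO libraries. The log2 fold change was −0.45 (SE 0.20), with an unadjusted p of 0.0463 and an adjusted p of 0.501 by the edgeR quasi-likelihood test. cKO S5 set much of its size, since without it the log2 fold change was −0.26.

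Itgb5 was at 27.3, 25.99, 33.4 and 25.2 CPM in controls and at 36.8, 42.1, 63.7 and 37.8 CPM in cKO (chromosome 16, 33829665 to 33949338, plus strand). Itgb5 encodes a partner of αv that binds vitronectin. Every cKO library was above every control, with cKO S5 highest and the other 3 between 36.8 and 42.1 CPM. The result was a log2 fold change of 0.69 (SE 0.22), an unadjusted p of 0.00812 and an adjusted p of 0.283 by the edgeR quasi-likelihood test, and without cKO S5 the log2 fold change was 0.48. The share of Itgb5 in the summed β-chain level per kb was 9.90% ± 1.36 in controls and 19.3% ± 8.12 in cKO (n = 4 each, ± SD).

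The 3 other tested β chains, Itgb3, Itgb4 and Itgb7, were between 1.20 and 3.38 CPM in the mean of either group. Itgb4, the laminin receptor chain of hemidesmosomes, had a log2 fold change of 0.77 (SE 0.60), and Itgb3, the αv and platelet partner, one of 0.44 (SE 0.72), with adjusted p of 0.723 and 0.886 by the edgeR quasi-likelihood test. Control S6 held 3.52 CPM of Itgb3 and the other controls at most 0.887, and without it the log2 fold change was 1.39. Itgb6, known from epithelia, held 66 reads over all libraries and was not tested. Summed over the 8 β chains, the level was 79.7 ± 4.69 (SD, n = 4) CPM per kb in controls and 68.3 ± 7.78 (SD, n = 4) in cKO, and over the 18 α chains 82.9 ± 11.96 (SD, n = 4) CPM per kb in controls and 90.1 ± 10.6 (SD, n = 4) in cKO.

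**Figure D3:**
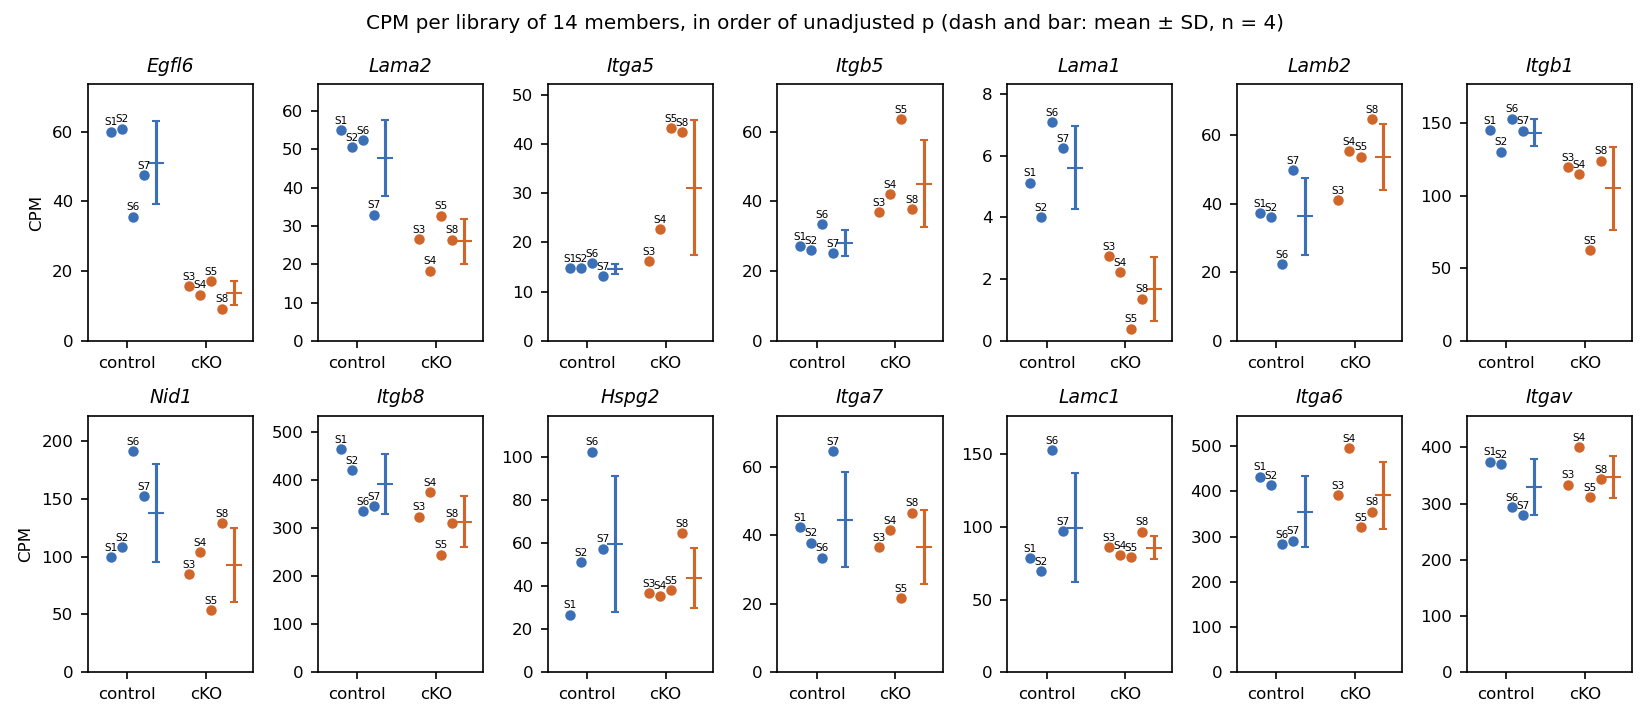
CPM (y axis, from 0) of 14 members in each library, blue for control and orange for cKO, with the library number beside each point and the group mean ± SD (n = 4) as a dash and bar, in order of unadjusted p. Groups do not overlap for Egfl6, Lama2, Itga5, Itgb5, Lama1 and Itgb1, and they overlap for the other 8.

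All 4 tested laminin α chains had negative log2 fold changes, and none passed the threshold by the edgeR quasi-likelihood test. The α chain carries the cell-binding end of the trimer. Lama2 encodes the α2 chain of muscle, Schwann cell and parenchymal vascular basement membranes. By counts per kb it was the most abundant in controls, with 50.7% ± 6.35 (SD, n = 4) of the summed laminin α level. By the mean deposited FPKM Lama5 was higher than Lama2, at 6.64 against 5.43 in controls and 5.92 against 2.96 in cKO. The FPKM of Lama5 ranged over 4.99 to 7.30 in controls and 2.26 to 12.4 in cKO. That of Lama2 ranged over 3.63 to 6.22 in controls and 2.01 to 3.65 in cKO. Lama2 lies on chromosome 10, 26980036 to 27619758, minus strand, and 6 other annotated genes overlap it. Lama2 was at 55.1, 50.6, 52.3 and 32.9 CPM in controls and at 26.5, 18.3, 32.7 and 26.4 CPM in cKO. Groups were separated only narrowly, by control S7 and cKO S5, at 32.92 and 32.71 CPM. The result was a log2 fold change of −0.88 (SE 0.23), an unadjusted p of 0.00235 and an adjusted p of 0.185 by the edgeR quasi-likelihood test. DESeq2 gave an adjusted p of 0.0241 and the authors' deposited table gave 0.0219, both past the threshold.

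Lama1, the α1 chain of the embryonic and pial basement membrane, was at a lower level (chromosome 17, 67697259 to 67822647, plus strand). Lama1 was at 5.13, 4.00, 7.09 and 6.25 CPM in controls and at 2.76, 2.22, 0.399 and 1.37 CPM in cKO. All cKO libraries were below all controls, and cKO S5 had only 7 reads. The result was a log2 fold change of −1.73 (SE 0.59), an unadjusted p of 0.0112 and an adjusted p of 0.326 by the edgeR quasi-likelihood test. In the authors' deposited table the adjusted p was 0.0477, and DESeq2 here gave 0.0520, so the tools put this gene on different sides of the threshold.

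Lama4 was at 6.91, 3.28, 9.61 and 8.95 CPM in controls and at 5.41, 2.36, 0.969 and 4.97 CPM in cKO. Lama4 encodes the α4 chain of endothelial basement membranes, and had a log2 fold change of −1.07 (SE 0.55) and an adjusted p of 0.558 by the edgeR quasi-likelihood test, with overlapping groups. Summed endothelial markers were at 70.5, 52.8, 76.3 and 49.5 CPM in controls and 60.8, 24.7, 34.9 and 31.3 CPM in cKO, and 10 of the 11 markers had a lower mean in cKO. Their part in the Lama4 values was not tested. Lama5, the α5 chain of mature vessels, was at 16.8 CPM ± 7.13 in controls and 15.3 CPM ± 0.504 in cKO (n = 4 each, ± SD). Its direction was not stable, since the log2 fold change was −0.13 with all libraries and 0.10 without control S2. Lama3, the α3 chain of epithelia, held 18, 9, 1 and 90 reads in controls and 8, 5, 5 and 3 in cKO, most of them in control S7, and was not tested. Summed over the 5 α chains, the laminin α level was 5.72 ± 0.698 (SD, n = 4) CPM per kb in controls and 3.42 ± 0.349 (SD, n = 4) in cKO, with all cKO libraries below all controls.

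By counts per kb, the β and γ chains were each dominated by 1 gene. For the β chains this was less marked in the mean deposited FPKM. There Lamb1 and Lamb2 were at 3.80 and 8.81 in controls and at 3.21 and 12.3 in cKO. The FPKM of Lamb1 ranged widely, over 0.149 to 10.9 in controls and 0.192 to 9.93 in cKO. That of Lamb2 ranged over 5.27 to 12.3 in controls and 9.92 to 15.3 in cKO. Lamb2, the β2 chain of synaptic and mature vascular laminins, took 92.6% ± 9.40 of the summed laminin β level per kb in controls and 97.6% ± 1.87 in cKO, and Lamc1, the γ1 chain of most laminins, took 99.4% ± 0.727 and 99.8% ± 0.193 of the γ level (n = 4 each, ± SD). Lamb2 was at 37.1, 36.1, 22.4 and 49.7 CPM in controls and at 41.1, 55.2, 53.6 and 64.5 CPM in cKO. Groups overlapped through control S7, and the log2 fold change was 0.56 (SE 0.24), with an unadjusted p of 0.0365 and an adjusted p of 0.466 by the edgeR quasi-likelihood test. Lamc1 was at 78.6, 69.7, 153 and 97.2 CPM in controls and at 86.3, 80.96, 79.4 and 96.8 CPM in cKO. Control S6 held the highest level of Lamc1, and its log2 fold change went from −0.21 to 0.070 without that library. Lamb1, the β1 chain, did the same, with 9.94 CPM in control S6 and at most 2.56 CPM in the other controls, and a log2 fold change of −0.88 with and 0.16 without it.

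Lamc3 held 9 reads over all libraries. Lamb3 held 0 of 152223816 gene reads, which allows a level of up to 0.0197 CPM without TMM scaling, from a limit of 3 counts that covers counting error only. The level of 1 read was between 0.0428 and 0.0728 CPM across libraries.

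Egfl6 fell in cKO. It encodes a secreted protein with EGF-like repeats and a MAM domain that binds integrin α8β1 through an RGD sequence, and it lies on chromosome X, 166523007 to 166585720, minus strand of GRCm38, with no other annotated gene overlapping it (ENSMUSG00000000402). Egfl6 was at 60.02, 60.9, 35.6 and 47.6 CPM in controls and at 15.6, 13.3, 17.04 and 9.29 CPM in cKO. The raw counts were 947, 836, 649 and 1005 reads in controls and 306, 293, 299 and 217 in cKO. The lowest control, S6, held more than the highest cKO library, S5, at 35.6 against 17.04 CPM. The means were 51.03 CPM ± 11.9 (SD, n = 4) in controls and 13.8 CPM ± 3.39 (SD, n = 4) in cKO, so that the fitted level in controls by edgeR was 3.70-fold that in cKO. The test gave a log2 fold change of −1.89 (SE 0.25) and an adjusted p of 0.0107 by the edgeR quasi-likelihood test, adjusted by Benjamini-Hochberg over 14757 genes. In the deposited FPKM, whose columns were used only by group, Egfl6 was at 16.9 to 29.8 in controls and 4.49 to 8.02 in cKO, again without overlap. In the authors' deposited table its shrunken log2 fold change was −1.68 with an adjusted p of 1.76e-09.

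The call on Egfl6 was lost without cKO S4, where the log2 fold change was −1.87 and the adjusted p 0.0618 by the edgeR quasi-likelihood test, and in limma tests of the FPKM, with adjusted p of 0.0770 and 0.0751. Over all 16 alternatives the log2 fold change stayed between −2.02 and −1.73 and the adjusted p between 2.89e-09 and 0.07701. Among all genes 47 were called with all libraries and 4 without cKO S4.

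The other linkers did not pass the threshold. Nid1, which links laminin γ1 to collagen IV and perlecan, was the linker with the highest level per kb in both groups. Nid1 was at 99.4, 108, 191 and 152 CPM in controls and at 84.8, 104, 53.6 and 128 CPM in cKO. Groups overlapped, controls S6 and S7 were highest, and the result was a log2 fold change of −0.57 (SE 0.27) and an adjusted p of 0.517 by the edgeR quasi-likelihood test. Without control S6 the log2 fold change was −0.37. Its relative Nid2 was at 3.11, 4.00, 12.2 and 3.08 CPM in controls and at 6.18, 6.49, 11.3 and 8.00 CPM in cKO. Only control S6 exceeded the cKO libraries, and the log2 fold change of Nid2 went from 0.51 with all libraries to 1.23 without control S6, with adjusted p of 0.789 and 0.372 by the edgeR quasi-likelihood test. Nid2 also overlaps the gene Rtraf.

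Hspg2 was at 26.9, 51.4, 103 and 57.5 CPM in controls and at 36.8, 35.7, 38.1 and 64.7 CPM in cKO. Hspg2 encodes perlecan, a heparan sulfate proteoglycan of basement membranes. Control S6 was highest, the groups overlapped, and the log2 fold change was −0.44 with all libraries and −0.047 without control S6, with adjusted p of 0.715 and 0.982 by the edgeR quasi-likelihood test. Npnt, nephronectin, the other linker with an RGD sequence for α8β1, held 15, 9, 2 and 38 reads in controls and 16, 0, 0 and 7 in cKO. Both groups included libraries near 0, and its log2 fold change of −1.64 had an SE of 1.2. Summed over the 5 linkers, the level was 44.1 ± 4.61 (SD, n = 4) CPM per kb in controls and 23.1 ± 3.84 (SD, n = 4) in cKO, and Egfl6 took 43.8% ± 13.8 of it in controls and 23.2% ± 8.95 in cKO (n = 4 each, ± SD). All cKO libraries lay below all controls in this sum, which includes Egfl6.

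Markers of fibroblasts stood apart in the same control library. The 8 fibroblast markers summed to 109.5, 194, 609.7 and 179 CPM in controls and 155, 76.1, 86.7 and 154 CPM in cKO. Dcn, Col3a1 and Lum were at 174, 97.99 and 37.8 CPM in control S6 and at 0 in control S1, cKO S4 and cKO S5. Most of the sum in control S1, cKO S4 and cKO S5 came from Col1a2, at 88.9, 64.4 and 74.9 CPM. Col1a2 ranged over 88.9 to 136 CPM in controls and 64.4 to 86.6 CPM in cKO, without overlap. Among the 4 controls, S6 was the highest for 15 of the 30 tested members. These were the matrix genes Hspg2, Nid1, Nid2, Lamc1, Lamb1, Lama1 and Lama4 and the integrin chains Itga4, Itga5, Itga10, Itga11, Itgb1, Itgb3, Itgb4 and Itgb5. The share over all genes tested was not computed. Egfl6 was lowest in control S6. Without control S6 Egfl6 had a log2 fold change of −2.02 and an adjusted p of 0.0121 by the edgeR quasi-likelihood test. Mural markers were at 97.3, 111, 108 and 121 CPM in controls and 73.7, 80.3, 55.9 and 95.8 CPM in cKO, without overlap between groups. Most of this sum came from Notch3 and Pdgfrb, while Kcnj8, Anpep and Higd1b reached at most 0.358 CPM in any library. The part of these cells in the levels of the laminin, nidogen and perlecan genes was not tested.

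**Figure D4:**
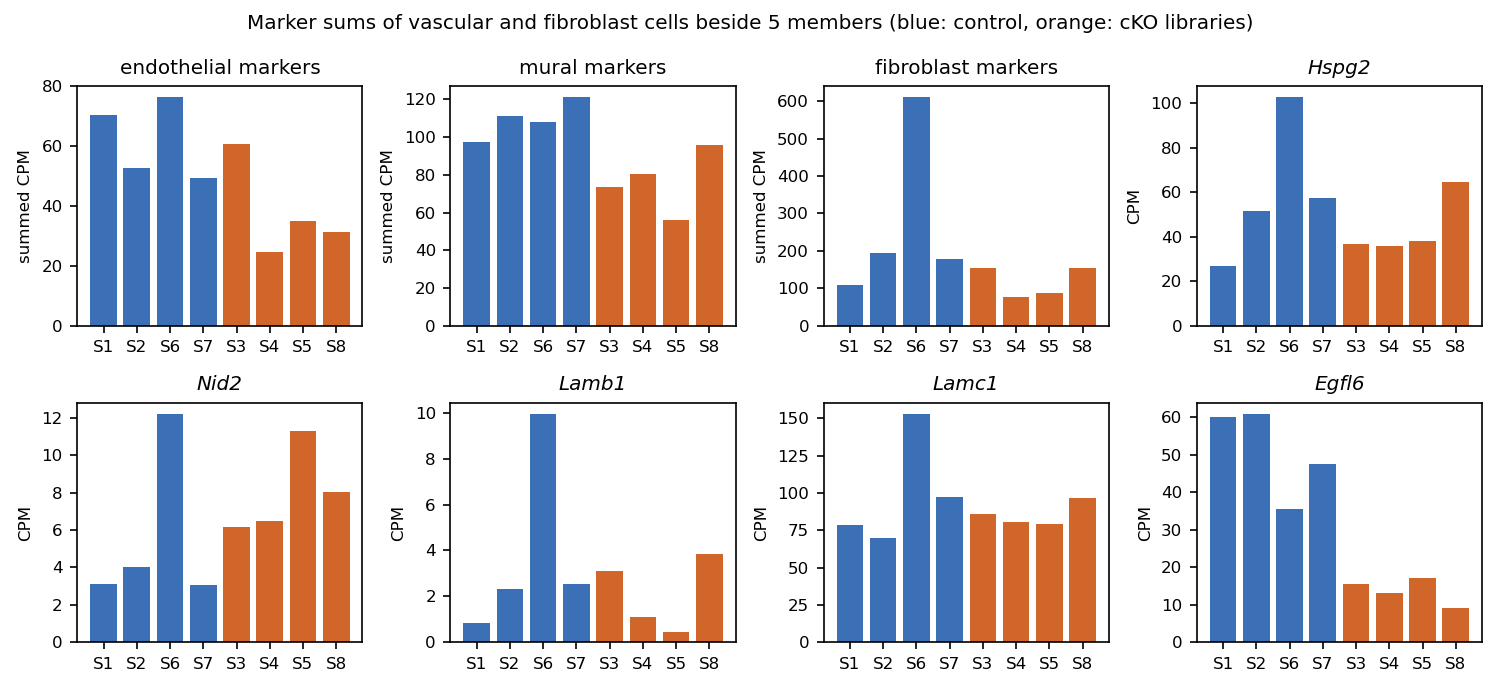
Summed CPM of endothelial, mural and fibroblast marker lists (first 3 panels) and CPM of 5 members (other panels) in each library, controls in blue and cKO in orange, with bars from 0. Control S6 is highest for fibroblast markers and for Hspg2, Nid2, Lamb1 and Lamc1, and it is the lowest control for Egfl6.

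The wider adhesion pathway was described from 4 lists. They were chosen with earlier results of these data known, so their counts describe the listed genes and are not a test of the lists. Of the basement membrane components outside the members (20 of 25 tested), 1 passed the threshold. This was Frem1, which encodes a basement membrane protein of the Fraser complex. Frem1 was at 69.3, 86.99, 75.2 and 35.8 CPM in controls and at 25.5, 18.5, 18.7 and 19.6 CPM in cKO. Every cKO library was below every control, with a log2 fold change of −1.70 (SE 0.26) and an adjusted p of 0.0151 by the edgeR quasi-likelihood test. Frem1 no longer passed in 5 of the 8 fits that left out 1 library, those without control S2, control S6, cKO S4, cKO S5 or cKO S8, with adjusted p of 0.0627 to 0.0812 by the same edgeR test, and in both FPKM tests. Its relative Frem2 was at 14.2 CPM ± 3.10 in controls and 28.5 CPM ± 12.4 in cKO (± SD, n = 4 each). Its log2 fold change was 1.01, at an adjusted p of 0.252 by the edgeR quasi-likelihood test. In this list 8 genes had an unadjusted p under 0.05, 5 higher and 3 lower, where the share over all genes tested was 9.81%, and the median log2 fold change was −0.33. Nell2, among the 5 higher genes, is a secreted signalling protein placed in that list although it is not a structural part of the membrane. Its log2 fold change was 0.93, with an adjusted p of 0.126 by the edgeR quasi-likelihood test.

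In the other lists 0 genes passed the threshold by the edgeR quasi-likelihood test, and DESeq2 called 4 genes over all 4 lists where edgeR called 1. Among integrin activators and adhesion adaptors such as talin, kindlin and focal adhesion kinase genes (23 of 27 tested), 2 had an unadjusted p under 0.05, both lower, and the median log2 fold change was −0.037. Dystroglycan, its partners and other laminin receptors (19 of 20 tested) had 4 such genes, 3 higher and 1 lower, with a median of 0.27. Integrin ligands outside the basement membrane (19 of 24 tested) had 5, 2 higher and 3 lower, with a median of −0.033. Beside these counts, 9.81% of all genes tested had an unadjusted p under 0.05. In this last list 3 genes had an unadjusted p under 0.01, in differing directions. Tgfb2 had a log2 fold change of −0.69, Tgfb3 one of 2.08 and Lrrc32, which anchors latent TGF-β at the cell surface, one of −4.01, with adjusted p of 0.310, 0.228 and 0.218 by the edgeR quasi-likelihood test. Tgfb2 was at 66.4, 49.1, 49.8 and 62.2 CPM in controls and at 29.1, 48.2, 24.8 and 39.3 CPM in cKO. Tgfb3 was at 4.75, 3.06, 1.98 and 4.97 CPM in controls and at 4.85, 15.1, 36.8 and 5.82 CPM in cKO. For Lrrc32, control S7 held 16.6 CPM and the other controls at most 3.11 CPM, against at most 0.868 CPM in cKO. Without cKO S5 the log2 fold change of Tgfb3 was 1.22, and its adjusted p ranged from 0.0241 (DESeq2) to 0.607 over the alternatives. Without control S7 that of Lrrc32 was −2.83 (in limma on log2(FPKM + 1) −1.24), and its adjusted p ranged from 0.00872 (DESeq2) to 0.488.

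Replicate spread limited what could be seen for many members. The coefficient of variation among the 4 controls ranged from 6.59% for Itgb1 to 122% for Itgam. It was 15.2% for Itgav and 15.8% for Itgb8, and above 50% for 12 of the 30 tested members. In the authors' deposited table, where 2.87% of the 12314 genes with an adjusted p were under 0.05, 4 of 26 members with an adjusted p were, 3 lower (Egfl6, Lama2, Lama1) and 1 higher (Itga5). The sign of the log2 fold change in the authors' deposited table was that of the edgeR fit for all 30 tested members, which rest on the same counts. DESeq2 here called 3 of 32 members with an adjusted p (Egfl6, Lama2 and Itga5), where the background was 2.49%.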

How the data were processed

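The authors deposited raw counts per gene for each library, which per the submitters' processing notes came from a workflow listing TopHat2 2.0.11, Bowtie2 2.2.3, HTSeq 0.6.1p1 and the build GRCm38. The 5 closing lines of each count table name no gene, held 56.4% to 61.7% of reads and were left out. The authors' deposited FPKM (Cufflinks 2.2.1 and Cuffnorm are listed) were used only by group, because 3 of 8 columns followed the counts of the library with the same name, although all 8 followed a library of their own group. Whether the names of the FPKM columns or of the count libraries are the right ones was not settled, so a library number here is that of the count table, and groups are not touched. The authors' deposited DESeq2 1.14.1 table gives, per the file headers, group means of scaled counts (a signal), log2 fold changes, their standard errors and Wald scores, and p-values.

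Counts were tested with edgeR 4.0.16 in R 4.3.3 (quasi-likelihood, TMM, filterByExpr, no covariate), with Benjamini-Hochberg adjustment over 14757 genes and a threshold of 0.05. The annotation release and strand setting of the counting are not given in the sources used here. The scripts were tested on simulated data. Alternatives used DESeq2 1.42.0, limma 3.58.1, other scalings and filters, pseudocounts of 1 and 0.1, and each library left out. Exon lengths and coordinates are from GENCODE M21 on GRCm38. Values in every library were given for members with an unadjusted p under 0.05, with separated groups and a mean of at least 1 CPM, or among the 12 with the highest FPKM; pathway genes were named at an adjusted p under 0.05 or an unadjusted p under 0.01. Lama4, Nid2, Lamb1 and other members were added after their values were seen. The values of 1 untested member and 1 marker are not reported here. The members and lists were chosen with earlier results of these data known. Ependymal, Schwann and platelet lists were also summed, at up to 26.3, 2.27 and 12.8 CPM in any library.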

Additional observations from a re-analysis of the deposited data

Results flagged for a closer look

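A library standing apart from the other 3 of its group was looked for in 60 groups (30 tested members in each genotype), where chance alone would give about 3. It was found in 4, by the gap to the nearest library as a share of the range of the group (Dixon's limit at the 95% level).

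Nid2 was at 12.2 CPM in control S6 and at 3.08 to 4.00 CPM in the other controls, a gap of 0.899 of the range. Itgb3 was at 3.52 CPM in control S6 and at 0.582 to 0.887 CPM in the other controls, a gap of 0.896. In that library the summed fibroblast markers were at 609.7 CPM, against at most 194 CPM in the other controls, and their part in these values was not tested.

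Itgb1 was at 62.9 CPM in cKO S5 and at 115 to 124 CPM in the other cKO libraries, a gap of 0.847. cKO S5 was the lowest cKO library for 13 of the 30 tested members and the highest for 10. Hspg2 was at 64.7 CPM in cKO S8 and at 35.7 to 38.1 CPM in the other cKO libraries, a gap of 0.916.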

How the results depend on the processing

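The loss of Kcnj10 held under all 16 alternatives, past the threshold in each, at log2 fold changes of −6.12 to −5.61. Genes called over the whole table numbered 47, against 87 with a filter of 1 count in any library, 84 with 10 counts in every library, 384 with DESeq2, and 7 and 8 in limma tests of log2(FPKM + 1) and log2(FPKM + 0.1), and between 4 and 45 when 1 library was left out. Members called numbered 1, against 3 with DESeq2, 0 and 0 in the FPKM tests (limma, where Egfl6 had unadjusted p of 7.31e-05 and 7.72e-05), and 0 to 1 when 1 library was left out (0 only without cKO S4). Pathway genes called numbered 1, against 4 with DESeq2, 0 and 0 in the FPKM tests, and 0 to 1 when 1 library was left out. Signs turned in 13 cases, all of members with no call. With limma-voom these were Itga10 at 0.936 and Lama5 at 0.0265. With log2(FPKM + 1) they were Itga10 at 0.0163, Itga4 at 0.00496 and Itga9 at 0.00773, and with log2(FPKM + 0.1) Itga10 at 0.172. Without control S6 they were Itga10 at 0.300, Lamb1 at 0.161 and Lamc1 at 0.0695. Without control S1 and control S2 Lama5 was at 0.00702 and 0.0992, and without control S7 and cKO S4 Itga9 was at 0.238 and 0.0169. Over the fits that left out 1 library, Itga10 went from −0.658 to 0.300, Itga9 from −0.812 to 0.238, Lama5 from −0.315 to 0.0992, Lamb1 from −1.33 to 0.161 and Lamc1 from −0.352 to 0.0695. No paired analysis was run, because each library number is unique and the labels used here give no pairing of animals. Few reads limit the 12 untested members, and a value near 0 there is not evidence of absence.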
